A study of Mus musculus with 10 samples.

Results

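Chondroitin and dermatan sulfate are sulfated sugar chains carried by proteoglycans, and the 9 genes described here (Chsy1, Chpf, Chpf2, Csgalnact1, Csgalnact2, Chst11, Chst12, Dse and Ust) encode enzymes that build and sulfate them. They were chosen by name from a table of 53465 genes, with their counts in both genotypes already known, so the difference between the genotypes is part of how they were selected. RNA was sequenced from peritoneal macrophages kept in culture with no added treatment, from Mac-GsαKO mice (KO, 5 libraries) and control mice (CTR, 5 libraries) aged 6 to 8 weeks. By their name the KO mice lack Gsα, the stimulatory G protein subunit encoded by Gnas, in macrophages. The sources used here do not give the strain, the driver of the deletion or the exact genotype of the CTR mice. Whether the 5 libraries of a genotype are 5 mice is not stated either, so p-values and errors cover the spread between libraries, which may be technical.

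The chains start on a short linkage sugar that joins them to a serine of the core protein. Csgalnact1 and Csgalnact2 encode the transferases that add the first N-acetylgalactosamine and so direct the chain to chondroitin rather than heparan sulfate. Chsy1 encodes a polymerase that extends the chain with alternating glucuronic acid and N-acetylgalactosamine, and Chpf and Chpf2 encode related polymerising factors that work with it. Chst11 and Chst12 encode sulfotransferases that place sulfate on carbon 4 of N-acetylgalactosamine, Dse an epimerase that turns glucuronic into iduronic acid and makes the chain dermatan sulfate, and Ust a sulfotransferase that sulfates the uronic acid. In macrophages such chains are known from serglycin and from cell surface proteoglycans, and in the artery wall chondroitin sulfate is known to bind lipoproteins.

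Library totals ranged from 16877249 to 19235777 counts in KO and from 15664243 to 18028974 counts in CTR. Gnas stood at 37.0 to 43.5 CPM (the count divided by the library total as scaled by TMM, in units of 1e6 counts) in KO and at 359 to 491 CPM in CTR. All 5 KO libraries lay below all 5 CTR libraries (two-sided exact permutation test, p = 0.00794, which is the smallest p possible for 5 against 5). Counts are per gene, so exons beyond a deleted stretch enter this value too. The macrophage markers Cd68 (2638 to 2910 CPM in KO and 2634 to 3115 CPM in CTR), Adgre1 (822 to 912 CPM in KO and 649 to 832 CPM in CTR) and Csf1r (1152 to 1397 CPM in KO and 796 to 1038 CPM in CTR) were abundant in every library. For each of the 8 genes tested, CTR 4 or CTR 5 was the highest or the lowest CTR library. One or the other library often takes such a place by chance, and the share over all genes was not counted. In bulk RNA, fewer cells of a type and less RNA per cell cannot be told apart.

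Of the 9 genes, 8 passed the filter on low counts and were tested among 13203 genes, and Csgalnact1 did not pass it. Chpf2 was the 1 gene of these 8 past an adjusted p of 0.05 in edgeR's quasi-likelihood test, and it was higher in KO. Over all genes tested 3.94% passed in either direction and 1.83% were higher in KO. For 2 of the 8, Chpf2 and Dse, all KO libraries lay above all CTR libraries, which held for 3.25% of the genes tested (7.8% did not overlap in either direction). The members were picked with this comparison known, so these counts describe them and are no independent evidence. For the same reason no p-value is given for any of the 9.

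**Figure D1:**
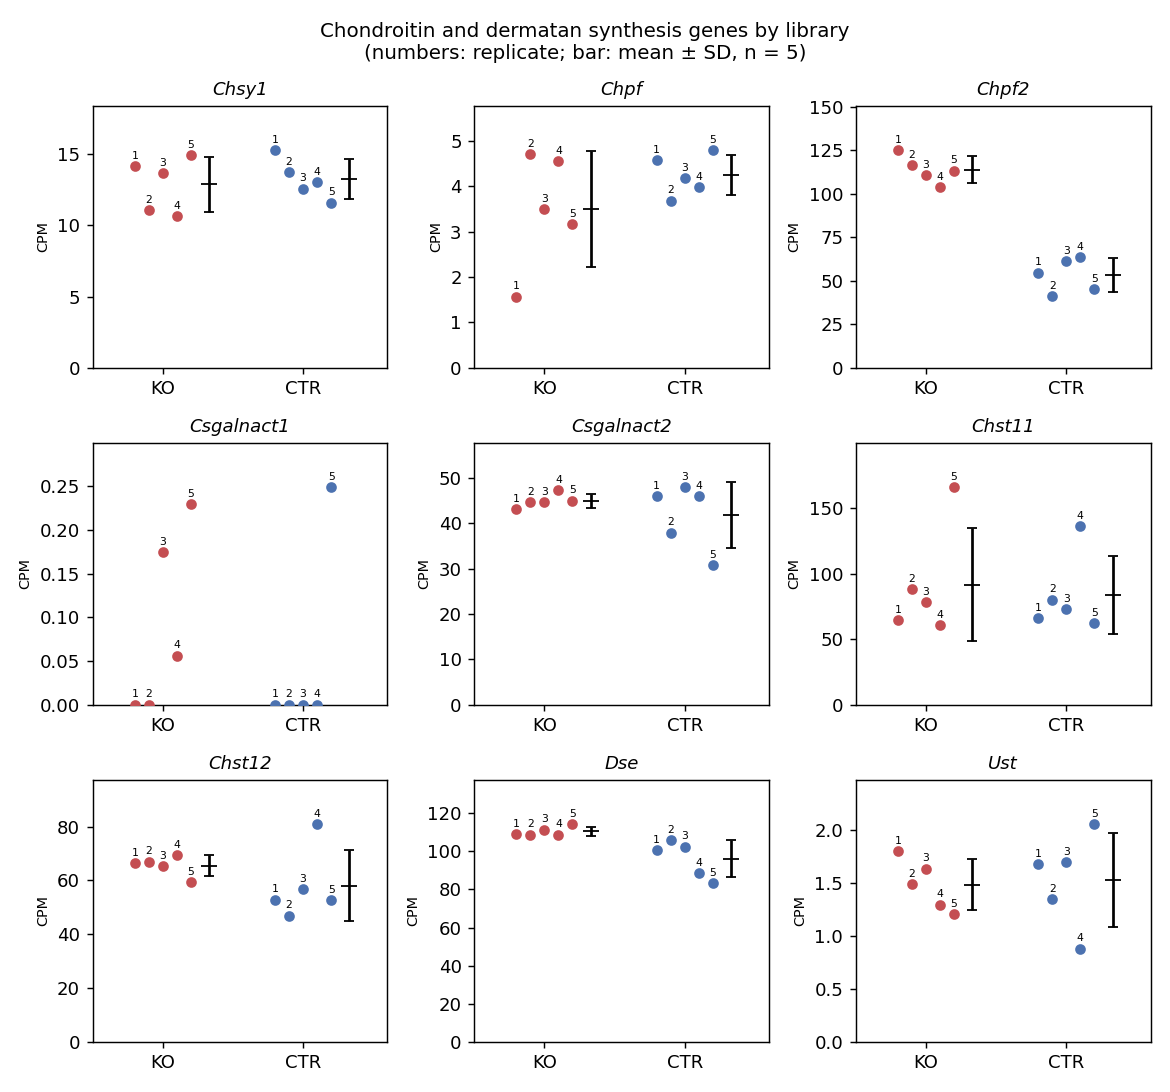
CPM of each of the 9 genes by library, KO on the left and CTR on the right of each panel, with the replicate number above each point and the mean ± SD (n = 5) as a bar, which is left out for Csgalnact1. Chpf2 separates the genotypes without overlap, Chst11 has 1 high library in each genotype, and Csgalnact1 is near 0 in all.

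Chpf2 (ENSMUSG00000038181), on chromosome 5, was 2.14-fold higher in KO, while its relative Chpf and their partner Chsy1 were not called. Chpf2 stood at 125, 116, 110, 104 and 113 CPM in KO 1 to KO 5. In CTR 1 to CTR 5 it stood at 54.6, 41.0, 61.1, 63.6 and 45.3 CPM. The lowest KO library lay well above the highest CTR library, and the spread within each genotype was small beside the gap between them. The means were 114 ± 7.91 CPM in KO and 53.1 ± 9.80 CPM in CTR (SD, n = 5 each), a log2 fold change of 1.10 (SE 0.12). By log2 fold change Chpf2 ranked 102 from the top among the 13203 genes tested and 54 among the 241 called higher. Its log2 fold change lay between 0.91 and 1.17 in all 20 other settings tried and it stayed past the threshold in each of them, among them every fit without 1 library (1.02 to 1.17) and the fit without CTR 4 and CTR 5 (1.12). Over those settings the share of all genes called higher ranged from 0.24% to 7.77%. The lowest value, 0.91, came with a correction of each library for gene length and GC content.

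Chsy1 (ENSMUSG00000032640) stood at 14.1, 11.1, 13.6, 10.6 and 14.9 CPM in KO 1 to KO 5, and at 15.3, 13.7, 12.6, 13.0 and 11.6 CPM in CTR 1 to CTR 5. The genotypes overlapped over most of their range, and the log2 fold change was -0.04 (SE 0.13). Chpf (ENSMUSG00000032997) stood at 1.56, 4.71, 3.50, 4.56 and 3.16 CPM in KO 1 to KO 5, and at 4.58, 3.68, 4.18, 3.99 and 4.80 CPM in CTR 1 to CTR 5. KO 1 was far below the rest, with 27 counts, and the other 4 KO libraries held 55 to 92 counts. Its log2 fold change was -0.28 (SE 0.25) with all libraries, -0.09 without KO 1 and -0.44 with the length and GC correction.

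The 300 bases around the start of Chpf2, Chpf and Chsy1 are shown because these genes encode partners in chain polymerisation and their values differed, and because Gsα acts through cAMP and the factor CREB. The windows run from 250 bases before to 50 bases after the RefSeq start (GRCm38.p6, strand of the gene, 5′ to 3′). Capitals mark the short cAMP response core TGACG or its complement CGTCA, which overlap to form the full element TGACGTCA, and the PU.1-type ETS core GAGGAAG or its complement CTTCCTC. PU.1 is a lineage factor of macrophages.
Chpf2, chr5:24586494-24586793, + strand: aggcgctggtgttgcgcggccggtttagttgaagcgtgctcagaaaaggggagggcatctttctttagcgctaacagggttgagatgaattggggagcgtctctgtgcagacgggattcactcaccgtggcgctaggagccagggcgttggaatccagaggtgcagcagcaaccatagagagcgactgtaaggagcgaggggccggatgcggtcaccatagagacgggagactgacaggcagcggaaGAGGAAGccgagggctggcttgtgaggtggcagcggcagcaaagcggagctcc
Chpf, chr1:75479422-75479721, - strand: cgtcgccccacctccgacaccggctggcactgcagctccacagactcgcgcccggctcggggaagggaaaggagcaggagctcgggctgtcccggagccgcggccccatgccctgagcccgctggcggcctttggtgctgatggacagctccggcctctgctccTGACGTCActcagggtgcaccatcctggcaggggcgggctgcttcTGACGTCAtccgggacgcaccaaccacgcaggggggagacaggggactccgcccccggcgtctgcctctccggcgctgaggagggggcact
Chsy1, chr7:66109242-66109541, + strand: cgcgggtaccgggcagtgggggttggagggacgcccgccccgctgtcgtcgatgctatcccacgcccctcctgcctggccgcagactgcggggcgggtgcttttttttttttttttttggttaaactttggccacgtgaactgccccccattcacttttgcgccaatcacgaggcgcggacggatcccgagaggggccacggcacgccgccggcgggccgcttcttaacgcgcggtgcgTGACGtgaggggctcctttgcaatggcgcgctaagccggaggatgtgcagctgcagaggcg

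The Chpf window held the full element TGACGTCA at 2 places, 86 and 41 bases before the start. In the Chsy1 window the core TGACG occurred once, 11 bases before the start, and the Chpf2 window held neither. The Chpf2 window held GAGGAAG once, beginning 3 bases before the start and running across it, and no GC box (GGGCGG or CCGCCC). RefSeq windows were found for 8 of the 9 genes, all but Csgalnact1. Chpf2 and Csgalnact2 have 2 windows each, and from the second Chpf2 start GAGGAAG begins 9 bases before. A gene was counted where either window held the motif, as for Csgalnact2, whose TGACG and GC box lie in different windows, while the share over all windows counts each window. The full element stood in 1 of these 8 genes and in 1.79% of 32851 windows of the same length in all, the core TGACG in 4 of 8 and in 20.8%, the PU.1-type core in 2 of 8 and in 13.6%, the GC box in 7 of 8 and in 35.7%, the E-box CACGTG in 1 of 8 and in 7.15%, and TATAAA in 0 of 8 and in 13.6%. Each motif was searched on both strands. A match describes these letters, not a bound site.

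Of the genes that start the chain, Csgalnact2 was abundant and Csgalnact1 was close to 0. Csgalnact2 (ENSMUSG00000042042) stood at 43.1, 44.8, 44.7, 47.4 and 45.0 CPM in KO 1 to KO 5, and at 46.0, 38.0, 48.1, 46.1 and 30.8 CPM in CTR 1 to CTR 5. The KO values lay close together inside the wider CTR range, with CTR 5 lowest. The log2 fold change was 0.11 (SE 0.12) with all libraries, 0.02 without CTR 5, 0.03 without CTR 4 and CTR 5, and 0.22 with the length and GC correction. Csgalnact1 (ENSMUSG00000036356) had 0, 0, 3, 1 and 4 counts in KO 1 to KO 5 and 0, 0, 0, 0 and 4 counts in CTR 1 to CTR 5. A count of 0 allows up to 3 counts per library for counting error only, so no difference was detectable at this depth.

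Chst12 and Chst11, the carbon 4 sulfotransferases among the 9 genes, each had CTR 4 as their highest CTR library. Chst12 (ENSMUSG00000036599) stood at 66.5, 67.0, 65.3, 69.5 and 59.3 CPM in KO 1 to KO 5, and at 52.9, 46.9, 56.8, 81.1 and 52.7 CPM in CTR 1 to CTR 5. All KO libraries lay above CTR 1, CTR 2, CTR 3 and CTR 5, and CTR 4 lay above all of them. The log2 fold change was 0.17 (SE 0.13) with all libraries, 0.32 without CTR 4 and 0.33 without CTR 4 and CTR 5. Chst12 passed the threshold in these last 2 fits and with voom quality weights (0.29), so that 2 of the 8 genes were then called, both higher in KO. The share of all genes called was 6.49% without CTR 4 (3.62% higher in KO), 8.76% without CTR 4 and CTR 5 (5.13% higher) and 14.5% with voom (7.77% higher).

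Chst11 (ENSMUSG00000034612) stood at 64.3, 87.9, 78.2, 60.9 and 166 CPM in KO 1 to KO 5, and at 66.3, 80.3, 73.2, 136 and 62.5 CPM in CTR 1 to CTR 5. KO 5 and CTR 4 stood far above the others, which overlapped between 60.9 and 87.9 CPM. The log2 fold change of 0.13 (SE 0.29) became -0.20 without KO 5, 0.37 without CTR 4 and 0.32 without CTR 4 and CTR 5. Its standard error was the largest of the 8 genes tested, though it was among the more abundant of them.

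Dse (ENSMUSG00000039497) stood at 109, 109, 111, 109 and 115 CPM in KO 1 to KO 5, and at 101, 106, 103, 88.7 and 83.2 CPM in CTR 1 to CTR 5. The genotypes did not overlap, but the gap between the nearest libraries was small, and CTR 4 and CTR 5 were lowest. The log2 fold change was 0.20 (SE 0.08) with all libraries and 0.10 (SE 0.06) without CTR 4 and CTR 5, and Dse did not pass the threshold in any setting tried. Ust (ENSMUSG00000047712) stood at 1.80, 1.49, 1.63, 1.29 and 1.21 CPM in KO 1 to KO 5, and at 1.68, 1.34, 1.69, 0.878 and 2.06 CPM in CTR 1 to CTR 5. These came from 21 to 31 counts in KO and 13 to 33 counts in CTR, the ranges overlapped, and the log2 fold change was -0.05 (SE 0.25).

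**Figure D2:**
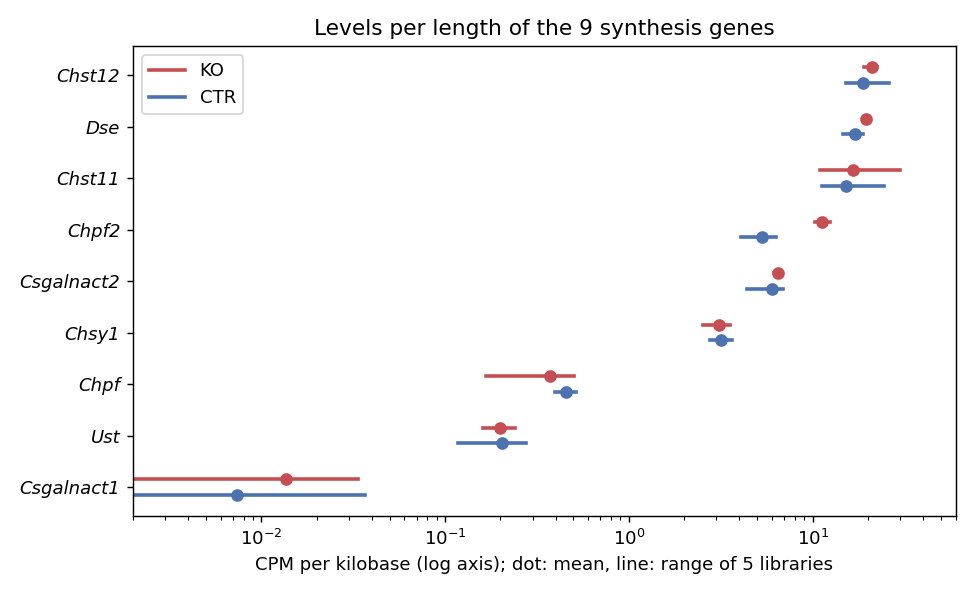
CPM per kilobase of the 9 genes on a log axis, KO above CTR for each gene, with the mean as a dot and the range of the 5 libraries as a line. The order is led by Chst12, Dse and Chst11 in both genotypes, Chpf2 is the gene whose ranges do not touch over a wide gap, and lines of Csgalnact1 run off the left edge because libraries were at 0.

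Levels of different genes were compared as CPM per kilobase, with the gene length behind the authors' FPKM. In KO the order of the mean levels was Chst12 (21.2 ± 1.23), Dse (19.5 ± 0.441), Chst11 (16.6 ± 7.81), Chpf2 (11.3 ± 0.788), Csgalnact2 (6.47 ± 0.219), Chsy1 (3.09 ± 0.460), Chpf (0.375 ± 0.136), Ust (0.198 ± 0.0322) and Csgalnact1 last (SD, n = 5). In CTR it was Chst12 (18.8 ± 4.31), Dse (17.0 ± 1.72), Chst11 (15.1 ± 5.44), Csgalnact2 (6.01 ± 1.04), Chpf2 (5.29 ± 0.976), Chsy1 (3.17 ± 0.332), Chpf (0.455 ± 0.0482), Ust (0.204 ± 0.0592) and Csgalnact1 last (SD, n = 5). The libraries of Chst12, Dse and Chst11 overlapped between neighbours in this order in both genotypes, so their order did not exceed the spread between libraries. Chpf2 overlapped with Chst11 but not with Csgalnact2 in KO, and with Csgalnact2 but not with Chsy1 in CTR. Chpf and Ust overlapped in KO and not in CTR.

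The shares of the polymerising genes did not overlap between the genotypes. The ratio of Chpf2 to Chsy1, per length, was 3.68, 4.37, 3.37, 4.05 and 3.15 in KO 1 to KO 5, and 1.48, 1.24, 2.02, 2.03 and 1.63 in CTR 1 to CTR 5. Chpf2 made up 74.2% to 78.6% of the summed per-length level of Chsy1, Chpf and Chpf2 in KO and 52.6% to 64.1% in CTR. The ratio of Chst12 to Chst11 ranged from 0.637 to 2.04 in KO and from 1.04 to 1.51 in CTR, and overlapped. These ratios use the same values as the folds above and add no support to them.

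The length used for Chpf2 and Chpf matters for their levels. The length behind the FPKM was 10041 bases for Chpf2 and 9334 bases for Chpf, against 5588 and 3856 bases for the union of exons in GENCODE M21 on GRCm38, another build than the GRCm39 that the submitters' processing notes name. With the M21 lengths Chpf2 came to 20.4 CPM per kilobase in KO and 9.50 in CTR, ranks 3 and 4 of the 9 genes. Chsy1 has 4176 bases by both, so the Chpf2 to Chsy1 ratios and the Chpf2 shares above would be higher with the M21 lengths. Both lengths behind the FPKM also exceed the whole M21 gene with its introns, 7816 bases for Chpf2 and 4739 bases for Chpf. A gene model longer than the gene can take in reads from next to it, and whether it did was not tested.

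Of the genes next to Chpf2 in that annotation 2 were tested, and neither was called higher. Smarcd3, a chromatin remodelling subunit gene that overlaps Chpf2 on the other strand, stood at 3.04 ± 1.12 CPM in KO and 3.47 ± 2.70 CPM in CTR (log2 fold change -0.18, SE 0.46, adjusted p = 0.851 by edgeR, and 0.35 without CTR 4). The processed pseudogene Gm10221, within 5 kb and on the other strand, fell to 103 ± 10.6 CPM in KO, against 156 ± 27.7 CPM in CTR (-0.59 on the log2 scale, SE 0.12, adjusted p = 0.0246 by edgeR). That call was lost without KO 1, KO 2, KO 4 or CTR 3 (adjusted p up to 0.0751), and its counts are uncertain because a processed pseudogene resembles another gene. How the counting treated strand is not stated, so reads of overlapping genes on opposite strands may not have been told apart. Obsl1, the nearest neighbour of Chpf on its own strand, stood at 0.677 ± 0.332 CPM in KO and 0.883 ± 0.671 CPM in CTR (-0.39 on the log2 scale, SE 0.50, adjusted p = 0.685 by edgeR, and 0.14 without CTR 5).

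The rest of the pathway and its neighbours were taken as 7 lists from knowledge of the pathway. They include heparan sulfate enzymes, hyaluronan synthases and hyaluronidases, and of their 88 genes 68 were tested. At an adjusted p under 0.05 by edgeR, 4 of these 68 rose (Sdc3, Cd74, Cemip2 and Ndst2) and 1 fell (Gnpnat1), beside 1.83% and 2.11% of all genes tested. The median log2 fold change of the 68 was 0.03, and over all genes tested it was -0.01. Counts and medians describe these lists, with no test of a list as a whole.

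**Figure D3:**
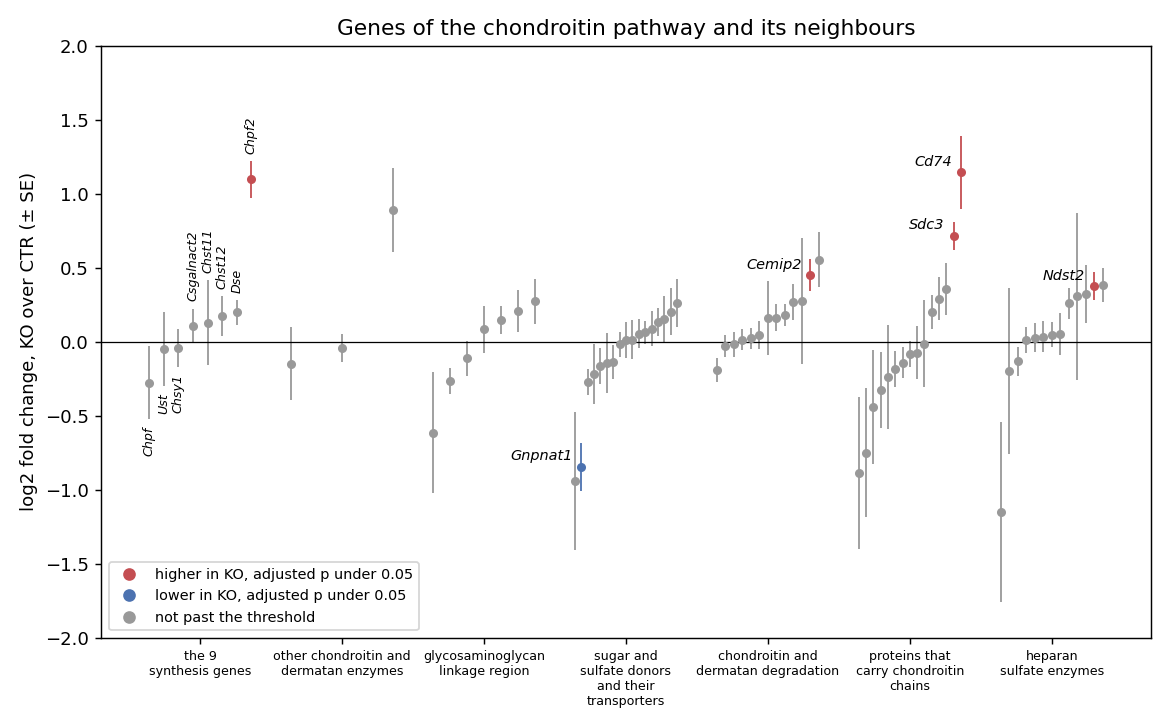
Log2 fold change of KO over CTR with its standard error for every tested gene of the 9 and of 6 of the 7 other lists, since no hyaluronan synthase was tested. Within each list genes run from the lowest to the highest value, red and blue mark genes past an adjusted p of 0.05, and among the 9 synthesis genes only Chpf2 is marked.

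None of the other chondroitin and dermatan enzymes passed. At an unadjusted p under 0.05, 1 of the 3 tested did by edgeR, beside 21.9% of all genes tested. Chst15, which adds sulfate to carbon 6 of units already sulfated on carbon 4, stood at 3.01, 3.18, 2.10, 3.21 and 2.24 CPM in KO 1 to KO 5, and at 1.73, 2.34, 0.846, 1.55 and 0.935 CPM in CTR 1 to CTR 5. CTR 2 reached into the KO range, and the log2 fold change was 0.89 (SE 0.28, adjusted p = 0.0952 by edgeR, and 0.0354 by DESeq2 and 0.0317 by voom). Chst14, the sulfotransferase of dermatan, stood at 32.9 ± 4.07 CPM in KO and 33.8 ± 0.868 CPM in CTR (-0.04 on the log2 scale, SE 0.09, adjusted p = 0.837 by edgeR), and Dsel, a relative of Dse, had -0.15 (SE 0.25, adjusted p = 0.758 by edgeR). Chst3 and Chst7, the carbon 6 sulfotransferases, did not pass the filter on low counts, with 8 to 21 and 2 to 7 counts in KO and 0 to 8 and 0 to 15 counts in CTR. Chsy3 and Chst13 had at most 1 and 4 counts in any KO library and 2 and 8 counts in any CTR library.

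None of the 7 genes that build the linkage region passed. By edgeR 1 of the 7 was past an unadjusted p of 0.05, again beside 21.9% of all genes. B4galt7, which adds the first galactose, stood at 39.2 ± 3.12 CPM in KO and 47.1 ± 3.24 CPM in CTR (log2 fold change -0.26, SE 0.09, adjusted p = 0.102 by edgeR). Xylt1, which adds the xylose that starts the linkage, had 0.27 (SE 0.15, adjusted p = 0.313 by edgeR), and the xylose kinase gene Fam20b 0.15 (SE 0.09, adjusted p = 0.387 by edgeR). The list median was 0.08. Without CTR 4 and CTR 5 the log2 fold change was 0.07 for Xylt1 and 0.07 for Fam20b, and without CTR 5 alone 0.18 and 0.09. By DESeq2, B4galt7 passed (adjusted p = 0.0486) and Xylt1 and Fam20b did not.

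Of 17 genes that make or move the sugar and sulfate donors, 1 fell and none rose. Gnpnat1, an acetyltransferase on the route to UDP-N-acetylglucosamine, stood at 5.62, 4.30, 6.18, 3.88 and 4.31 CPM in KO 1 to KO 5, and at 7.49, 8.53, 10.3, 9.60 and 7.79 CPM in CTR 1 to CTR 5. All KO libraries lay below all CTR libraries, and the log2 fold change was -0.85 (SE 0.16, adjusted p = 0.0200 by edgeR). It lost its call without KO 2, KO 4 or CTR 3 (adjusted p up to 0.0636). Ugp2, which makes UDP-glucose, had -0.27 (SE 0.09, adjusted p = 0.100 by edgeR, 0.0466 by DESeq2 and 0.0317 by voom), and -0.13 with the length and GC correction. Gfpt2, an amidotransferase of the hexosamine route, stood at 3.58 ± 1.28 CPM in KO and 6.89 ± 6.20 CPM in CTR (-0.94, SE 0.46, adjusted p = 0.259 by edgeR), with CTR 5 at 17.8 CPM and the other CTR libraries at 2.97 to 5.59 CPM. Its log2 fold change was -0.22 without CTR 5 and -0.35 without CTR 4 and CTR 5. The list median was 0.01.

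The 13 tested genes of chain breakdown included hyaluronidases, enzymes named for their action on hyaluronan. Of these 13, Cemip2, which encodes a cell surface hyaluronidase, rose to 38.6 ± 2.77 CPM in KO, against 28.2 ± 4.04 CPM in CTR (log2 fold change 0.45, SE 0.11, adjusted p = 0.0406 by edgeR). All KO libraries lay above all CTR libraries. Cemip2 lost its call without any 1 of the libraries but CTR 2 and CTR 4 (adjusted p up to 0.104). Hyal1, a lysosomal hyaluronidase, stood at 152 ± 25.2 CPM in KO and 103 ± 28.6 CPM in CTR (0.56, SE 0.19, adjusted p = 0.111 by edgeR and 0.0495 by DESeq2), and had 0.32 without CTR 4 and CTR 5. Hexa, a subunit of the hexosaminidase that trims chain ends, had 0.18 (SE 0.07, adjusted p = 0.165 by edgeR, 0.0353 by DESeq2 and 0.0395 by voom), and the list median was 0.16.

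Among the proteins that can carry chondroitin chains, 2 of 15 tested rose. Sdc3, a syndecan with heparan and chondroitin chains, stood at 2417, 2452, 2088, 2693 and 2119 CPM in KO 1 to KO 5, and at 1566, 1451, 1403, 1495 and 1255 CPM in CTR 1 to CTR 5. The genotypes did not overlap, the log2 fold change was 0.71 (SE 0.09, adjusted p = 0.00483 by edgeR), and it stayed past the threshold in all 20 other settings (0.57 to 0.76). Cd74, whose protein is best known from antigen presentation and has a chondroitin sulfate form, rose to 1239 ± 242 CPM in KO, against 560 ± 222 CPM in CTR (1.14 on the log2 scale, SE 0.25, adjusted p = 0.0294 by edgeR), a call that was lost without KO 1, KO 2, KO 4, CTR 1 or CTR 3 (adjusted p up to 0.0796). Srgn, the gene of serglycin, ranged from 292 to 371 CPM in KO and from 270 to 798 CPM in CTR, where CTR 4 was the high library (-0.33 on the log2 scale, SE 0.26, adjusted p = 0.488 by edgeR, and 0.06 without CTR 4). Srgn was named after its values were seen. Sdc4, another syndecan, had 0.36 (SE 0.18, adjusted p = 0.253 by edgeR and 0.0382 by voom). The list median was -0.08.

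Of 13 tested enzymes of heparan sulfate, the chain made from the same linkage region, Ndst2, an N-deacetylase and N-sulfotransferase, rose to 40.9 ± 3.16 CPM in KO, against 31.5 ± 3.22 CPM in CTR (log2 fold change 0.38, SE 0.10, adjusted p = 0.0494 by edgeR). It lay near the threshold and lost its call without any 1 of the 10 libraries (adjusted p up to 0.124). Extl3, which encodes an initiating transferase of heparan sulfate, had 0.38 (SE 0.12, adjusted p = 0.0841 by edgeR and 0.0274 by DESeq2), and Hpse, heparanase, 0.26 (SE 0.10, adjusted p = 0.170 by edgeR). The list median was 0.05. No hyaluronan synthase passed the filter on low counts, and the 3 genes together held at most 0.525 CPM in a KO library and 0.338 CPM in a CTR library.

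**Figure D4:**
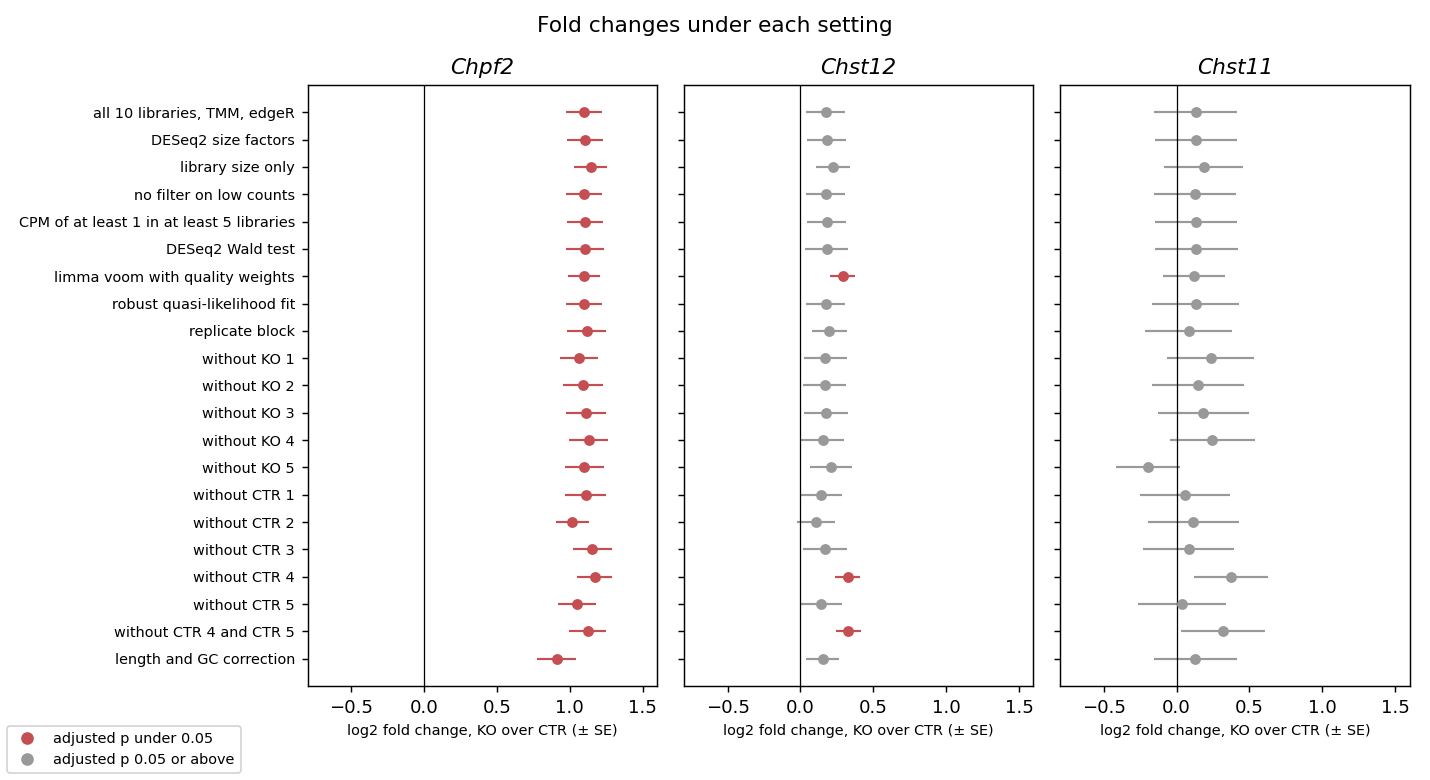
Log2 fold change of KO over CTR with its standard error for Chpf2, Chst12 and Chst11 with all libraries and in 20 other settings, red where the adjusted p was under 0.05. Chpf2 stays between 0.91 and 1.17, Chst12 is red in 3 settings, and Chst11 lies below 0 without KO 5.

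Within the genotypes the 8 tested genes deviated together in some pairs and in opposite directions in others. As deviations from the genotype mean, the correlation of Chpf2 was 0.69 with Chst12, 0.67 with Csgalnact2, 0.18 with Chsy1 and -0.24 with Chpf (Pearson, 10 libraries). That of Chst11 with Ust was -0.74, and that of Chsy1 with Chpf -0.60. Single libraries weigh on both: KO 5 and CTR 4 were highest for Chst11 and lowest for Ust (21 and 13 counts) within their genotypes. For Chpf, KO 1 was lowest with 27 counts. A further search left the difference between the genotypes in, over all 10 libraries, and its mean included Chpf2. In it the 3 genes most like the mean standardised level of the 8 tested genes, of 11334 searched, were Cdkn1b (r = 0.94, rho = 0.79), Rab31 (r = 0.93, rho = 0.85) and Creb1 (r = 0.92, rho = 0.72). Their own log2 fold changes were 0.32 (SE 0.22), 0.08 (SE 0.07) and 0.39 (SE 0.20). All these values share the same libraries and scaling, and they are a description over 10 points.

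The summed markers of each other cell type were low beside those of macrophages, and their part in the results was not tested. As a single gene, the B cell marker Cd22 averaged 186 CPM in KO and 179 CPM in CTR, above some of the macrophage markers. The 8 fibroblast markers summed to 39.1 to 56.5 CPM in KO and 25.3 to 107 CPM in CTR, with CTR 5 highest, and the 7 mesothelial markers to 19.1 to 27.9 CPM in KO and 9.41 to 56.0 CPM in CTR, with CTR 5 highest. The 8 mast cell markers, of a cell rich in sulfated chains, summed to 1.45 to 19.8 CPM in KO and 3.85 to 31.2 CPM in CTR. The 7 T and NK cell markers summed to 0.922 to 1.61 CPM in KO and 0.226 to 1.81 CPM in CTR. The 7 neutrophil markers summed to 12.5 to 25.7 CPM in KO and 19.1 to 27.8 CPM in CTR, with Ly6g at 0 in all libraries, and S100a8 was lower in KO (-0.56 on the log2 scale, SE 0.14, adjusted p = 0.0443 by edgeR, kept in 2 of 10 fits without 1 library). The 7 B cell markers summed to 174 to 224 CPM in KO and 152 to 217 CPM in CTR, nearly all of it Cd22. All 4 B cell markers tested had a higher value in KO (median log2 fold change 0.63) and none passed by edgeR. Ighm stood at 7.09 to 10.8 CPM in KO and 1.56 to 6.03 CPM in CTR, without overlap (0.97, SE 0.32, adjusted p = 0.108 by edgeR, 0.0354 by DESeq2 and 0.0236 by voom), and Cd79a at 0.811 to 1.81 CPM in KO and 0.292 to 1.06 CPM in CTR (1.17, SE 0.39, adjusted p = 0.105 by edgeR and 0.0463 by voom). The 10 macrophage markers summed to 14993 to 16529 CPM in KO and 30381 to 38903 CPM in CTR, most of it Lyz2. Lyz2 averaged 9240 CPM in KO and 26528 CPM in CTR, while Csf1r and Itgam rose in KO (adjusted p = 0.0235 and 0.0494 by edgeR). The call of Csf1r was lost without KO 1, KO 2, KO 4 or CTR 3 (adjusted p up to 0.0741), and that of Itgam in 8 of 10 fits without 1 library (up to 0.130). Of the 7 marker sums, that of the macrophage markers separated the genotypes, with KO lower, as did Lyz2, which makes up most of it. Of the 10 macrophage markers, 6 had a higher value in KO and 4 a lower one (median log2 fold change 0.14). Chpf2 was at 45.3 CPM in CTR 5, the library with the highest fibroblast and mesothelial sums, and at 63.6 CPM in CTR 4.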

How the data were processed

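The deposited table held raw counts per Ensembl gene and FPKM made by the authors, with 1 column of each per library. Per the submitters' processing notes, CASAVA 1.8, HISAT2, SAMtools 1.3.1, edgeR and GRCm39 were used, with no order or role. No source used here names the counter, the annotation release or the strand setting. The deposited FPKM gave the gene length, which differed between libraries by at most 1.4e-05 of its value at 50 counts or more. Symbols were matched for 53274 of 53465 identifiers, and the 191 others held 0.0403% of the counts.

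Counts were tested with edgeR 4.0.16 in R 4.3.3 (filterByExpr, TMM, quasi-likelihood test, genotype as the only term, two-sided), with Benjamini-Hochberg adjustment over the 13203 genes tested and a threshold of 0.05. Alternatives were other scalings, filters, tools and a robust fit, a length and GC correction, the replicate number as a block, and leaving out each library or CTR 4 and CTR 5 together, which earlier results of these data had set apart. Each SE by edgeR is the size of the log2 fold change divided by the root of its F statistic. For DESeq2 it is the SE that the tool reports, and for voom the log2 fold change divided by its t statistic. The alternative fits used DESeq2 1.42.0, limma 3.58.1 and mgcv 1.9.3. Members and lists were chosen with earlier results of these data known. Named were the 9 genes, Gnas, and from each pathway list the called genes and up to 3 with the lowest p, and the 3 genes most like the members' mean. The most abundant genes of the marker lists were Lyz2, Col1a2, Krt8, Tpsb2, Cd22, Klrb1c and S100a8. Promoter windows are from RefSeq (GRCm38.p6), searched for 6 motifs chosen after the fold changes were seen. Protein sequences were not used here.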

Additional observations from a re-analysis of the deposited data

Results flagged for a closer look

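In 12 of 97 groups of 5 libraries there was 1 library far from the others, over 54 genes named in the text, leaving out groups with fewer than 10 counts in every library. Chance alone gives about 1 in 20 such groups where genes are not picked by their values. Some of the 54 genes, Srgn among them, were named after their values were seen, so 12 of 97 cannot be set against that rate. In 5 of the 12 groups the library far from the others was CTR 4. Chst11 stood at 136 CPM in CTR 4, against 62.5 to 80.3 CPM in the other CTR libraries, and at 166 CPM in KO 5, against 60.9 to 87.9 CPM in the other KO libraries. CTR 4 was also high for Srgn (798 CPM, others 270 to 368 CPM), Lyz2 (33295 CPM, others 24310 to 25275 CPM), Gm10221 (203 CPM, others 131 to 152 CPM) and S100a8 (23.4 CPM, others 17.5 to 18.5 CPM). In CTR 5, Gfpt2, an amidotransferase gene of the hexosamine route, stood at 17.8 CPM (others 2.97 to 5.59 CPM) and Col1a2, a collagen gene, at 56.3 CPM (others 12.1 to 24.9 CPM). In CTR 1, Tpsb2, a mast cell tryptase gene, stood at 10.1 CPM (others 0.946 to 3.27 CPM). In KO 5, Cd68 was low at 2638 CPM (others 2839 to 2910 CPM) and Klrb1c, an NK cell receptor gene, high at 0.632 CPM (others 0.169 to 0.292 CPM). In KO 3, Ighm stood at 10.8 CPM (others 7.09 to 7.88 CPM).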

How the results depend on the processing

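Chpf2, Sdc3 and Gnas kept their direction and stayed past the threshold in each of the 20 alternatives fitted, with log2 fold changes of 0.91 to 1.17, 0.57 to 0.76 and -3.68 to -3.39. The number of the 9 genes called higher was 1, and 2 with voom quality weights, without CTR 4, and without CTR 4 and CTR 5; over the fits without 1 library it was 1 to 2, and none was called lower in any. Over all genes, 241 were called higher and 279 lower, and with library-size scaling alone 312 and 213. The counts were 122 and 139 with no filter on low counts, 599 and 690 with DESeq2, 1026 and 893 with voom, 694 and 491 without CTR 4 and CTR 5, and 32 to 484 and 30 to 384 without 1 library. In the other pathway lists 4 were higher and 1 lower. These became 8 and 3 with DESeq2, 7 and 3 with voom, 1 higher with no filter, and 1 to 3 and 0 to 1 without 1 library. The sign turned for Chsy1 without KO 2 (0.0093), KO 4 (0.020) or CTR 1 (0.015), for Chst11 without KO 5 (-0.20), for Ust without KO 5 (0.017) or CTR 5 (0.080), for Dsel without CTR 1 (0.0059) and for Chst14 without KO 2 (0.0014), none past the threshold. It also turned for Srgn without CTR 4 (0.059) and without CTR 4 and CTR 5 (0.015), for Obsl1 without CTR 5 (0.14), and for Smarcd3 with voom (0.40), with the block (0.049), without CTR 4 (0.35) and without CTR 4 and CTR 5 (0.48), none of them called. Over the fits without 1 library Chsy1 ranged from -0.10 to 0.020, Chst11 from -0.20 to 0.37, Ust from -0.19 to 0.080, Dsel from -0.29 to 0.0059, Chst14 from -0.10 to 0.0014, Srgn from -0.45 to 0.059, Smarcd3 from -0.41 to 0.35 and Obsl1 from -0.70 to 0.14. The rank of Chpf2 per length was 4 in KO and 5 in CTR, 1 and 4 by CPM without length, and 3 and 4 with M21 exon lengths, an alternative chosen after seeing the data. The cause of these shifts was not tested. Genes near a count of 0, such as Csgalnact1, cannot be compared at this depth.

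With the replicate number as a block, 59 genes were called higher and 45 lower, and in the other pathway lists 2 and 0; Gnpnat1, Cemip2 and Ndst2 were not called (adjusted p = 0.0566, 0.104 and 0.108 by edgeR). Deviations of same-numbered libraries correlated between -0.13 and 0.06 across genes, and 0 of 10 libraries correlated best with its own number. A correlation over all genes cannot decide whether same-numbered libraries share a litter or batch, and the sources used here do not say. Chpf2 had a log2 fold change of 1.12 with the block.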

Other observations

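Hs6st1, a 6-O-sulfotransferase of heparan sulfate chosen after its values were seen, had widely spaced values within both genotypes. It stood at 14.1, 16.0, 64.2, 13.2 and 63.3 CPM in KO 1 to KO 5, and at 13.4, 14.7, 45.8, 13.2 and 50.8 CPM in CTR 1 to CTR 5. The high libraries, KO 3, KO 5, CTR 3 and CTR 5, had the same replicate numbers in both genotypes, and the cause was not tested.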
